A study of Mus musculus with 36 samples.

Results

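The genes described here are the muscle contraction and myogenesis genes of the deposited hallmark table, meaning the genes marked there for the hallmark myogenesis set and not for the hallmark set of E2F targets. Of 191 identifiers in the set, 8 were left out by name (Col1a1, Col3a1, Sparc, Erbb3, Igf1, Igfbp3, Igfbp7 and Cdkn1a), which left 183, and 179 of these had values in the expression table of 21650 genes. Myl2, Myl3, Myl7 and Chrng had no row there and were not analysed here. The authors' mean normalized count over all libraries was at least 100 for 155 of the 179 genes and at least 10 for 175 of them.

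RNA was sequenced from 36 primary tumors and mammary glands, in 12 groups of 3 libraries. Luciferase-expressing 4T1 cells, a metastatic mammary tumor line from BALB/c mice, were inoculated through the teat canal of BALB/c females, and Py230 cells, a locally invasive line from a tumor of MMTV-PyMT mice on the C57BL/6 background, were inoculated in C57BL/6 females. Both lines were given in Matrigel to the third mammary gland of adult dams shortly after their pups were weaned, and the controls were glands of the same strains that received Matrigel alone (Matrigel glands). Tissue was taken at 1, 3 and 6 weeks post-inoculation (w p.i.). The cell line and the mouse strain cannot be told apart between the models, and each line is a single established line. No source states that the 3 libraries of a group came from separate litters or preparation days, so the tests measure the spread between these libraries.

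The deposited expression values are scores, centered on 0 and scaled to an SD of 1 within every library, so a score of 1 lies 1 SD of that library's genes above its average gene. Across the 13567 genes with an authors' mean of at least 100, 1 score unit went with 2.78 log2 units of that mean, which gives a rough scale and not a fold change. All differences below are in score units. Replicate 1 of the 4T1 tumors and replicate 1 of the Py230 tumors at 3 w p.i. stood apart from their groups in genes of fat: adipocyte genes had mean scores of 0.75, 2.02 and 2.16 in the 4T1 and 0.47, 1.72 and 1.98 in the Py230 tumors, in replicate order, and counts at 3 w p.i. that turn on them are given without them too. In bulk tissue, fewer cells of a type and less RNA per cell cannot be told apart.

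Skeletal muscle contracts through sarcomeres, in which thick filaments of myosin pull on thin filaments of actin when calcium released by the ryanodine receptor binds troponin. Fast and slow fibers use different forms of myosin, troponin, calsequestrin and the calcium pump, and some of the slow forms also serve the heart. Normal mammary epithelium makes no sarcomeres, but its myoepithelial cells and the walls of its vessels contract with smooth muscle proteins, and thoracic mammary glands lie over skeletal muscle of the chest wall and under a thin sheet of skin muscle. The hallmark set also holds genes of matrix, fat and signaling that are used far outside muscle.

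By their roles, 11 of the genes encode parts of the thick filament, 16 parts of the thin filament and Z-disc, 13 act in calcium release and excitation, 15 in energy supply of muscle, and 14 at the sarcolemma and neuromuscular junction. A further 11 are myogenic regulators, 12 serve smooth muscle and myoepithelial contraction, and 20 are matrix, adipose or secreted gene products. The remaining 67 genes fell in none of these lists. The fast-fiber forms among them were Myh1, Mylpf, Tnnc2, Tnni2, Tnnt3, Actn3, Atp2a1 and Casq1, which are 8 genes.

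The proximal promoters of 3 sarcomere genes are shown, those of Acta1 (skeletal muscle actin) and Mylpf (the regulatory light chain of fast fibers), which varied widely between replicates, and of Tnnt2 (cardiac troponin T), which was high in 1 group of tumors. Each is a RefSeq window on GRCm38.p6 from 250 bases before to 50 bases after a start site, 5′ to 3′. Acta1 is at chr8:123894726-123895025 on the minus strand, Mylpf at chr7:127211358-127211657 on the plus strand, and Tnnt2 at chr1:135836084-135836383 on the plus strand, where it is the window nearest the annotated gene start among 2 in the table. Capitals mark matches, on either strand, to CAGCTG (an E-box of the kind that myogenic factors bind), to TATAAA, or to the CArG box that serum response factor binds.
Acta1: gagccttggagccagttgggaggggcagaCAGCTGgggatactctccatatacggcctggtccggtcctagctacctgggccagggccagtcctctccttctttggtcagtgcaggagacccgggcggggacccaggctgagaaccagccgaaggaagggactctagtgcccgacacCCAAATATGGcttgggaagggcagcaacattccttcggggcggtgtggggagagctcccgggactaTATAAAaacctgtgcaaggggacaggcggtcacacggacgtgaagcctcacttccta
Mylpf: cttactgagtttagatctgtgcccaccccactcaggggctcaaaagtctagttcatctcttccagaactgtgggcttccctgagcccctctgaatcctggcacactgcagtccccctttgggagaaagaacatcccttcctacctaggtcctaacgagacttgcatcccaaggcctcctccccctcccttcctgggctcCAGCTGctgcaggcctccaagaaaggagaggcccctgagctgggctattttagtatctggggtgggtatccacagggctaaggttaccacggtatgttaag
Tnnt2: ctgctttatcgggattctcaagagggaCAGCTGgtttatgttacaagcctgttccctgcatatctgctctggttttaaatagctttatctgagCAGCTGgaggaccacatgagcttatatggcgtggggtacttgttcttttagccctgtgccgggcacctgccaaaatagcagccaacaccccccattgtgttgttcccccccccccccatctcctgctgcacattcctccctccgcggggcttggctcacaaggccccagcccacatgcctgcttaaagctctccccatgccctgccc
Windows were found for 133 of the 179 genes. CAGCTG was present in 25.6% of their 180 windows and in 41.8% of the 55 windows of sarcomere, calcium and energy genes, against 16.3% of all 32851 promoters. The CArG box was present in 5.0% of the windows of these genes and 1.63% of all promoters, the MEF2 box in 6.67% and 1.86%, and TATAAA in 12.8% and 13.6%. In the windows shown, CAGCTG was matched 1 time in Acta1, 1 time in Mylpf and 2 times in Tnnt2.

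Fast-fiber genes differed widely between replicates. Their mean score ran from -0.87 in Py230 tumor replicate 1 at 3 w p.i. to 2.16 in C57BL/6 Matrigel gland replicate 2 at 1 w p.i. Within a group the distance between the highest and the lowest library had a median of 1.39 and reached 3.01, while the 12 group means spanned 2.16.

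In 4T1 primary tumors the 8 fast-fiber genes had mean scores of -0.71, 1.39 and 0.46 at 1 w p.i., of 0.70, 1.58 and 0.83 at 3 w p.i. and of -0.43, -0.70 and -0.04 at 6 w p.i., in the order of replicates 1 to 3. In Py230 primary tumors the scores were 1.10, 0.22 and 1.42, then -0.87, 0.12 and 1.59, and then -0.83, 0.75 and 0.56. The 4T1 tumors were low together at 6 w p.i. and wide apart at 1 w p.i. The Py230 tumors were wide apart at 3 w p.i., and 1 of them was far below the other two at 6 w p.i. In BALB/c Matrigel glands the scores were 1.03, 1.98 and -0.64 at 1 w p.i., 1.42, 1.42 and -0.24 at 3 w p.i. and 1.66, 2.03 and 1.62 at 6 w p.i. In C57BL/6 Matrigel glands they were 0.99, 2.16 and -0.85, then 0.84, 1.62 and 1.45, and then 1.16, 1.40 and 1.38. Control glands without tumor cells thus held both the highest library and 3 of the low ones, namely replicate 3 of the BALB/c glands at 1 w p.i. and at 3 w p.i. and replicate 3 of the C57BL/6 glands at 1 w p.i.

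**Figure D1:**
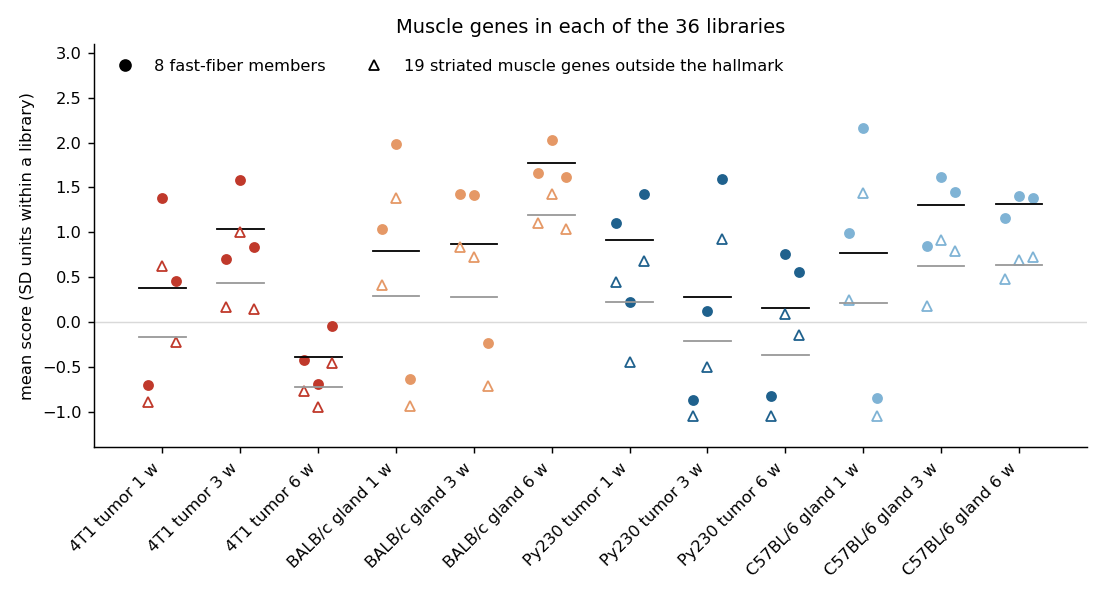
Mean score of the 8 fast-fiber genes (filled circles) and of 19 striated muscle genes outside the hallmark set (open triangles) in each library (vertical axis, SD units within a library), by tissue and weeks post-inoculation; black and grey bars are the means of 3 libraries. The circles spread over 3.01 units in C57BL/6 glands at 1 w p.i., and only the 4T1 tumors at 6 w p.i. have all 3 circles below 0.

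The same order of libraries was seen in striated muscle genes that are not in the hallmark set. For 19 such genes, among them Ttn and Neb, which encode the giant sarcomere proteins titin and nebulin, the mean score ran from -1.05 to 1.43, with its lowest and highest value in the same libraries as the fast-fiber genes. The 3 libraries of a group stood in the same order by both lists in 10 of 12 groups. By role, the order matched that of the fast-fiber genes in 12 of 12 groups for calcium genes, in 11 for thick filament, energy and sarcolemma genes, in 10 for thin filament genes and myogenic regulators, in 6 for smooth muscle genes and in 4 for matrix, adipose and secreted genes. Some of these lists share genes with the fast-fiber list. Embryonic and neonatal forms (Myh3, Myh8, Myl4 and Myog) followed it in 11 groups, and muscle stem cell genes (Pax7, Myf5, Myod1, Cdh15 and Chodl) in 6.

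For lists of genes of other cells the count ran from 0 to 8. It was 8 of 12 groups for brown adipocyte genes, 6 for fibroblast genes, 5 for adipocyte genes, 4 for keratinocyte, nerve sheath and myoepithelial genes, 2 for endothelial genes, 1 for luminal epithelium, 1 for leukocytes and 0 for milk genes. Luminal and leukocyte genes each stood in the opposite order in 4 of 12 groups. In BALB/c glands at 1 w p.i., for example, leukocyte genes had mean scores of 0.57, 0.25 and 0.70, lowest in the replicate with the highest fast-fiber score. The brown adipocyte genes stood apart in 2 libraries, with mean scores of 0.70 in BALB/c gland replicate 2 at 1 w p.i. and 0.51 in replicate 2 at 3 w p.i., against -1.42 to -0.17 in the tumors. In these 2 libraries, in turn, Ucp1 had scores of 1.63 and 1.30, Cidea of 1.27 and 1.4, and Elovl3 of 0.12 and 0.25. The list also includes Ppargc1a (0.80 and 0.14) and Cpt1b (-0.33 and -0.51), which muscle also uses. Keratinocyte genes had mean scores of 0.62 in BALB/c gland replicate 2 and 0.42 in C57BL/6 gland replicate 3 at 6 w p.i., and of -0.20 in 4T1 tumor replicate 3 at 6 w p.i., and at most -1.05 in the other libraries. The library with the highest keratinocyte score, BALB/c gland replicate 2 at 6 w p.i., also had the highest scores of sarcolemma genes (0.82), myogenic regulators (0.82) and smooth muscle genes (1.32), and a fast-fiber score of 2.03. The part of skin in these scores was not tested.

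**Figure D2:**
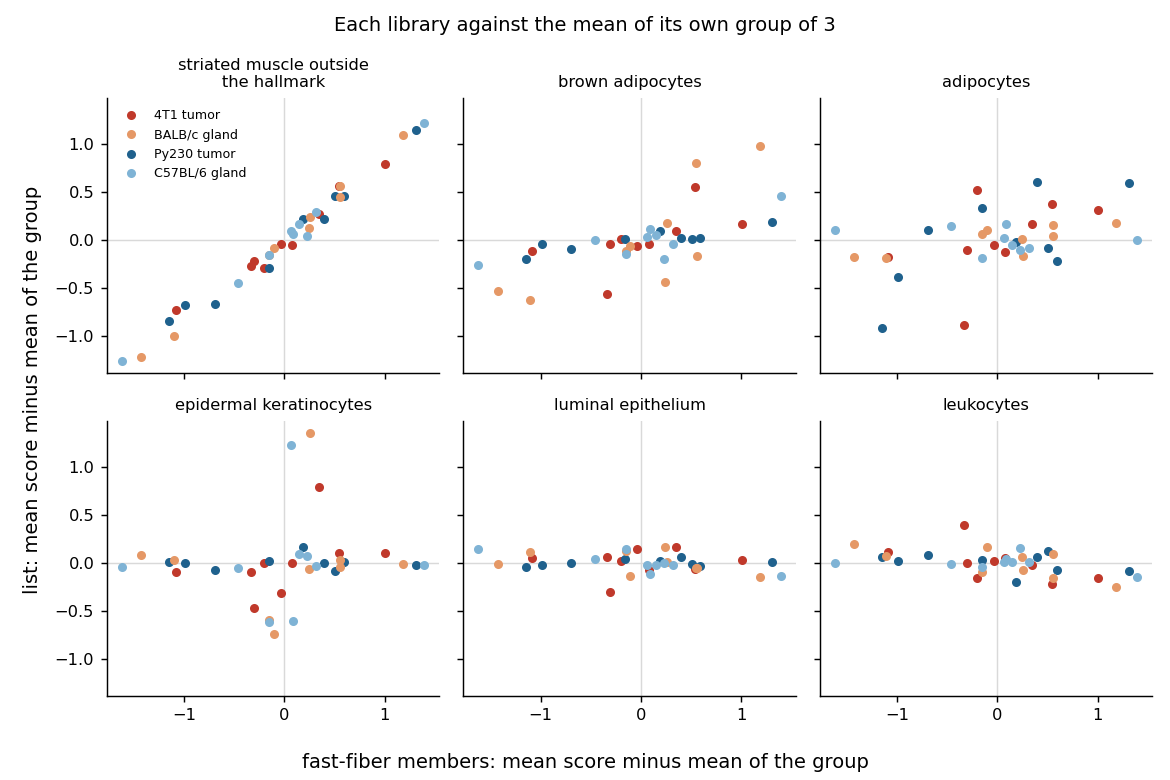
Each library's mean score minus the mean of its own group, for the 8 fast-fiber genes (horizontal axis) and for 6 lists of genes outside the hallmark set (vertical axes), in score units; each point is 1 of 36 libraries. Points of the 19 striated muscle genes lie along a rising line, and those of luminal epithelium and leukocytes do not.

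The spread between replicates was large in the genes of the muscle fiber and smaller in the rest of the set. The SD between the 3 libraries of a group, pooled over 12 groups, had a median of 0.96 score units in the 8 fast-fiber genes, 0.69 in thin filament, 0.67 in thick filament, 0.49 in energy and 0.40 in calcium genes. It was 0.16 in matrix, adipose and secreted genes, 0.13 in smooth muscle genes, 0.12 in myogenic regulators and 0.10 in the 67 genes of no role list, against 0.07 in all genes. In all, 68 of the 179 genes lay above the 95th percentile of all genes (0.25), among them 8 of 8 fast-fiber genes, and so did 19 of the 19 striated muscle genes outside the set and 10 of 10 adipocyte genes. Atp2a1, which encodes the calcium pump of fast fibers, had the highest SD of the set (1.12), followed by Ckm, which encodes the creatine kinase of muscle (1.09), and Tnnt3, which encodes fast troponin T (1.05).

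**Figure D3:**
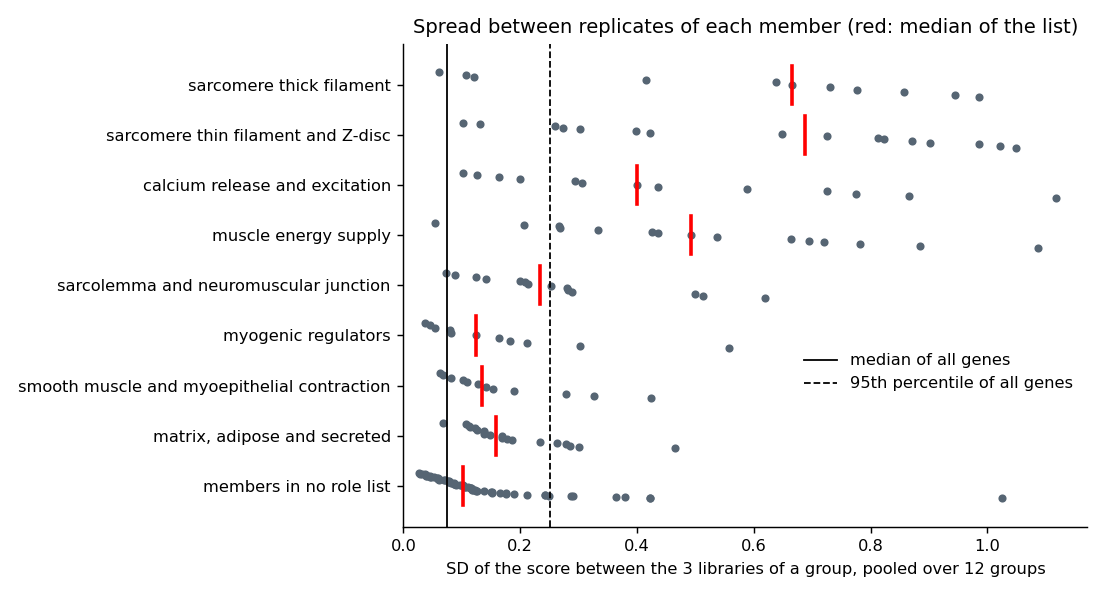
SD of the score between the 3 libraries of a group, pooled over 12 groups (horizontal axis, score units), for each of the 179 genes (points) by role list (rows), with the list median in red. The medians of the sarcomere, calcium and energy lists lie to the right of the dashed line, the 95th percentile of all 21650 genes at 0.25, and those of the other lists to its left.

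Single genes show how far libraries of the same group were apart. Acta1 had scores of 2.15, 3.39 and 0.32 in C57BL/6 glands at 1 w p.i. and of 2.24, 3.21 and 0.42 in BALB/c glands at 1 w p.i. Ckm had scores of -0.80, 0.67 and 2.24 in Py230 tumors at 3 w p.i., so that replicate 1 was near the bottom of its range over all libraries and replicate 3 near the top. Pvalb, which encodes the calcium buffer parvalbumin of fast fibers, had scores of -0.77, 1.77 and 0.55 in 4T1 tumors at 1 w p.i. For these 3 genes the 4 groups of a week overlapped at 1 w p.i. as well as at 3 w p.i.

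Myh1, Myh2, Myh4, Myh3 and Myh8 encode near-identical myosin heavy chains in 1 cluster, chr11:67078300-67308634 on mm10, so the split of reads among them is uncertain. Myh1 (a fast form) and Myh4, a fast form that is not in the set as deposited, moved together: in 4T1 tumors at 3 w p.i. Myh1 had scores of 0.50, 1.82 and 1.07 and Myh4 of 2.09, 2.95 and 2.05. Tnnc2, the fast form of troponin C, was low in tumors and glands alike, with scores of -1.50, -1.48 and -1.54 in 4T1 tumors and -1.13, -0.94 and -1.02 in BALB/c glands at 6 w p.i., and an authors' mean of 15.8 normalized counts.

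The comparison of 4T1 primary tumors with the glands of their own strain at 6 w p.i. asked how tumor tissue differed from the gland at the last time point, and it gave the largest number of calls among the 14 comparisons. With limma over all genes and a Benjamini-Hochberg threshold of 0.05, 133 of the 179 genes passed, 107 lower and 26 higher in the tumors. Of all genes, 60.1% were called (21.5% lower and 38.6% higher). The median difference was -0.39 over the set and 0.07 over all genes. Leaving out any 1 of the 6 libraries gave 116 to 131 calls.

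Sarcomere genes were lower in these tumors than in the glands of the same week. Acta1 (chr8:123891769-123894751, minus strand, mm10) had scores of 0.43, -0.25 and 0.99 in 4T1 tumors and 2.92, 3.32 and 2.88 in BALB/c glands, a difference of -2.65 (SE 0.80, adjusted p = 0.00595). The tumors lay below the glands of the same week without overlap. Among the 8 fast-fiber genes 7 were lower and Tnnc2 was not called, with a difference of -0.47 (SE 0.21, adjusted p = 0.0579). Mylpf differed by -2.50 (SE 0.74, adjusted p = 0.00512), Atp2a1 by -2.83 (SE 0.87, adjusted p = 0.00708) and Tnnt3 by -2.38 (SE 0.82, adjusted p = 0.0147). Without 4T1 tumor replicate 2 at 6 w p.i. the adjusted p of Tnnt3 was 0.0513, which did not pass. Of the 11 thick filament genes 8 were lower and 0 higher. Of the 16 thin filament genes 12 were lower and 3 higher, and of the 15 energy genes 14 were lower and 0 higher. Of all genes, 21.5% were lower and 38.6% higher. The BALB/c glands at 6 w p.i. had the highest fast-fiber mean of the 12 groups (1.77, against 0.79 at 1 and 0.87 at 3 w p.i.). The fast-fiber scores of these tumors were -0.43, -0.70 and -0.04. BALB/c gland replicate 3, without tumor cells, had -0.64 at 1 and -0.24 at 3 w p.i.

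Other genes of striated muscle moved with these calls. The 19 striated muscle genes outside the set had mean scores of -0.77, -0.95 and -0.45 in the 4T1 tumors and 1.10, 1.43 and 1.03 in the BALB/c glands at 6 w p.i., and 19 of 19 were called lower. In a fit with that mean as a covariate, an alternative chosen after the data were seen, 86 of the 179 genes were called, 55 lower and 31 higher, against 44.8% of all genes, and 74 of the 133 calls were kept. Acta1 then differed by -0.08 (adjusted p = 0.801), Mylpf by -0.08 (adjusted p = 0.655), Atp2a1 by -0.01 (adjusted p = 0.979) and Ckm by -0.19 (adjusted p = 0.518). Des (desmin), Ryr1 (the ryanodine receptor), Pfkm (muscle phosphofructokinase) and Pvalb also lost their call, and the estimates of Myh1 (0.24, adjusted p = 0.287) and Tnnt3 (0.29, adjusted p = 0.238) changed sign. The covariate was made of striated muscle genes that were all lower in these tumors and ordered the libraries much like the fast-fiber genes. Lost calls of sarcomere genes follow largely from that choice and are not separate evidence.

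Some genes of the Z-disc, energy and calcium lists were lower in 4T1 tumors at 6 w p.i. and stayed called with the covariate. Ldb3, which encodes a Z-disc protein that binds alpha-actinin, had scores of -0.65, -0.65 and -0.37 in the 4T1 tumors and 1.65, 2.03 and 1.54 in the BALB/c glands, a difference of -2.30 (SE 0.33, adjusted p = 1.92e-06), or -1.28 with the covariate (adjusted p = 1.1e-07). The 4T1 tumors at 6 w p.i. were the only 3 libraries with an Ldb3 score below 0. Ppp1r3c, which encodes a subunit that brings protein phosphatase 1 to glycogen, had scores of -0.80, -0.74 and -0.61 in these tumors and 1.32, 1.60 and 1.21 in the glands, a difference of -2.09 (SE 0.26, adjusted p = 2.27e-07), or -1.35 with the covariate (adjusted p = 3.1e-07). Every library of the other groups was above 0 for Ppp1r3c. Ldb3 and Ppp1r3c did not follow the fast-fiber genes throughout. In Py230 tumor replicate 1 at 3 w p.i. the fast-fiber mean score was -0.87, and neither Ldb3 nor Ppp1r3c was below 0. The 4T1 tumors at 6 w p.i. were also low in adipocyte genes (mean -0.05, against 1.85 in BALB/c glands). The same held for smooth muscle and myoepithelial genes outside the set (-0.04 against 1.18). The part of these cells in the calls was not tested. Casq2, which encodes the slow and cardiac calsequestrin, differed by -0.96 (SE 0.16, adjusted p = 1.12e-05), and Sh3bgr by -1.73 (SE 0.39, adjusted p = 0.000428).

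At the sarcolemma, 10 of 14 genes were lower and 2 higher in this comparison, where 21.5% of all genes were lower and 38.6% higher. Dmd, which encodes dystrophin, had scores of 0.45, 0.02 and -0.03 in 4T1 tumors and 0.96, 1.11 and 0.90 in BALB/c glands, a difference of -0.84 (SE 0.11, adjusted p = 5.29e-07). Lama2, which encodes the laminin chain that dystroglycan binds in muscle, differed by -1.07 (SE 0.16, adjusted p = 2.27e-06), Sgcd (delta-sarcoglycan) by -1.13 (SE 0.20, adjusted p = 3.04e-05) and Dtna (alpha-dystrobrevin) by -0.90 (SE 0.16, adjusted p = 4.21e-05). These 4 genes of the dystrophin complex and its ligand were lower in all 3 tumors than in all 3 glands. The genes that rose were Chrnb1 and Agrn. Agrn, which encodes agrin, the nerve-derived organizer of the neuromuscular junction, rose by 0.18 (adjusted p = 0.031), and this call was lost with the covariate (adjusted p = 0.563) and without any of 4 single libraries (4T1 tumor replicates 1 and 2, BALB/c gland replicates 1 and 2), with adjusted p from 0.056 to 0.0962.

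Chrnb1 (chr11:69784036-69795943, minus strand, mm10), which encodes the beta subunit of the muscle acetylcholine receptor, stood apart in 1 group. Its scores were 1.14, 1.12 and 1.11 in 4T1 tumors at 6 w p.i., and from 0.03 to 0.54 in the libraries of the other groups. The difference was 0.68 (SE 0.06, adjusted p = 4.33e-10) from BALB/c glands and 1.03 (SE 0.06, adjusted p = 1.87e-13) from Py230 tumors of the same week, whose scores were 0.13, 0.03 and 0.13. The other subunit measured, Chrna1, and the esterase gene Ache were not called between the tumors at 6 w p.i.: Chrna1 differed by 0.11 (SE 0.22, adjusted p = 0.74) and Ache by 0.28 (SE 0.22, adjusted p = 0.329).

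Tnnt2 (chr1:135836354-135852260, plus strand, mm10), whose protein ties tropomyosin to the troponin complex of heart muscle, was also raised in these tumors. It had scores of 0.87, 0.09 and 0.97 in 4T1 tumors at 6 w p.i. and -0.03, -1.10 and -1.19 at 3 w p.i., where replicate 1 alone was raised. At 6 w p.i. the scores were -1.04, -0.87 and -1.16 in Py230 tumors and -1.18, -1.01 and -0.90 in BALB/c glands, and no library of the other 10 groups was above -0.73. The difference at 6 w p.i. was 1.68 (SE 0.20, adjusted p = 1.59e-07) from BALB/c glands, 1.78 with the muscle covariate (adjusted p = 2.33e-06), and 1.67 (SE 0.20, adjusted p = 2.24e-07) from Py230 tumors.

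The slow and cardiac forms differed among themselves. The 8 genes of that list, Tnnt2 included, had a mean score between -1.33 and -0.91 in all 36 libraries, while Actc1 (cardiac actin) reached 0.51 in C57BL/6 gland replicate 2 at 1 w p.i. and Casq2 reached 0.31 in C57BL/6 gland replicate 3 at 3 w p.i. By the list mean, their order matched that of the fast-fiber genes in 3 of 12 groups. Tnni1, which encodes slow troponin I, rose by 0.32 in 4T1 tumors at 6 w p.i. (adjusted p = 0.00957) and by 0.48 in Py230 tumors at 6 w p.i. (adjusted p = 0.000526), each against its own glands. The first of these calls was lost without 4T1 tumor replicate 1, where the difference was 0.21 (adjusted p = 0.0955). Myh7, which encodes the slow and cardiac myosin heavy chain, had scores of -1.55, -1.54 and -1.53 in Py230 tumors at 6 w p.i. and -1.82, -1.79 and -1.86 in 4T1 tumors, with a difference from C57BL/6 glands of 0.41 (SE 0.05, adjusted p = 5.47e-07). Mybpc3, which encodes cardiac myosin-binding protein C, had scores of -1.09, -1.57 and -1.27 in 4T1 tumors at 1 w p.i., higher than BALB/c glands by 0.36 (SE 0.10, adjusted p = 0.0158). The Mybpc3 call was lost without 4T1 tumor replicate 3 and without BALB/c gland replicate 2. It was also lost in a fit on the groups compared alone. The authors' means of Tnni1, Myh7 and Mybpc3 were below 10 normalized counts, so these are differences near the floor of the table.

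**Figure D4:**
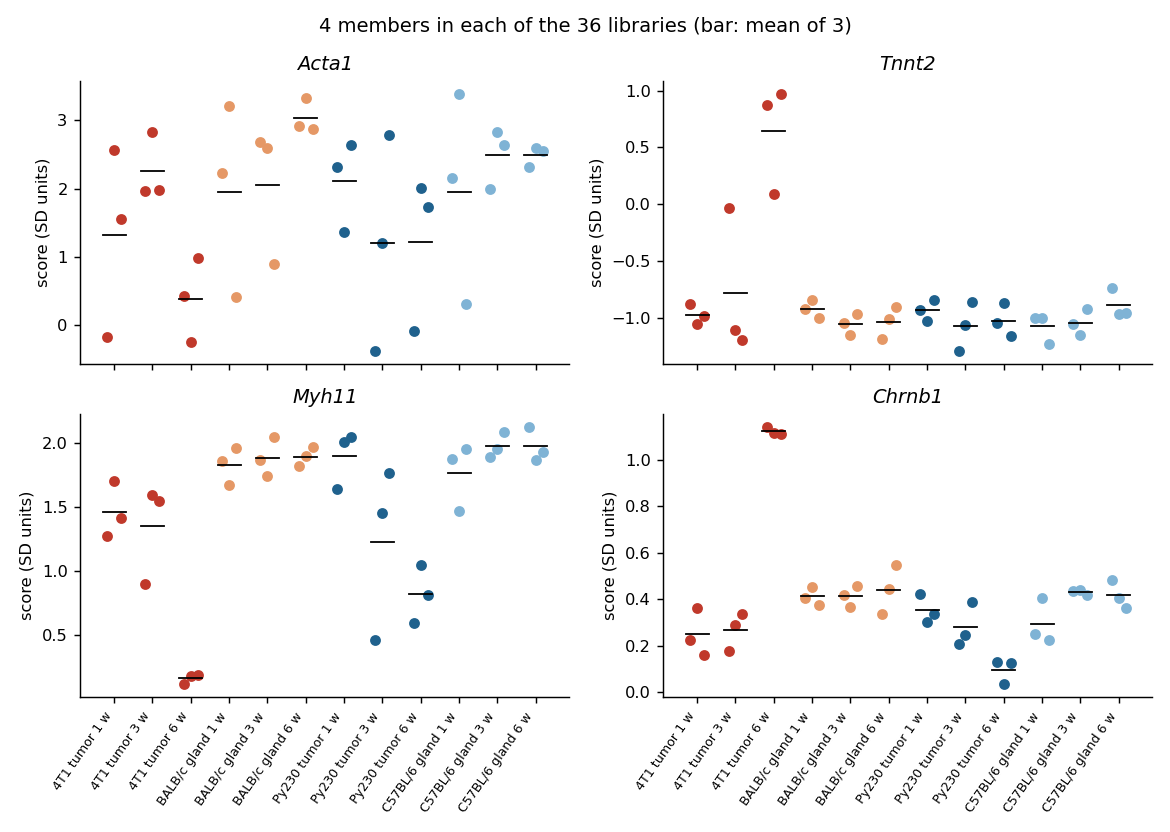
Scores of Acta1, Tnnt2, Myh11 and Chrnb1 (vertical axes, SD units within a library) in each of 36 libraries, by tissue and weeks post-inoculation; bars are means of 3 libraries and each panel has its own scale. Acta1 spreads within nearly every group, while Myh11 is lowest, and Tnnt2 and Chrnb1 are highest, in the 4T1 tumors at 6 w p.i.

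Most smooth muscle genes fell in 4T1 tumors at 6 w p.i. Myh11 (chr16:14194535-14291372, minus strand, mm10), which encodes the smooth muscle myosin heavy chain of vessel walls and myoepithelium, had scores of 0.11, 0.17 and 0.18 in 4T1 tumors at 6 w p.i. and 1.82, 1.90 and 1.97 in BALB/c glands, a difference of -1.74 (SE 0.22, adjusted p = 2.43e-07), or -1.62 with the muscle covariate (adjusted p = 1.77e-05). In Py230 tumors at 6 w p.i. it had scores of 0.59, 1.04 and 0.81 against 2.13, 1.87 and 1.93 in C57BL/6 glands, a difference of -1.16 (SE 0.22, adjusted p = 0.000109). Tumors lay below the glands in both models. Between the tumors Myh11 was lower in 4T1, with a difference of -0.66 (SE 0.22, adjusted p = 0.0167), and this call was lost without Py230 tumor replicate 2 (-0.54, adjusted p = 0.0856).

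Of the 12 smooth muscle genes, 7 were lower and 2 higher in 4T1 tumors at 6 w p.i. against their glands (60.1% of all genes called, 21.5% lower), and 4 were lower and 1 higher in Py230 tumors (47.6% of all genes called, 18.7% lower). Mylk, which encodes the kinase that starts smooth muscle contraction, differed by -0.58 (SE 0.15, adjusted p = 0.00175) in 4T1 tumors, and Tagln, which encodes transgelin, by -0.39 (SE 0.12, adjusted p = 0.00685) in 4T1 and -0.40 (SE 0.12, adjusted p = 0.00813) in Py230 tumors. Cnn3, which encodes a calponin found in many non-muscle cells, rose by 0.35 in 4T1 (adjusted p = 5.19e-05) and by 0.53 in Py230 tumors (adjusted p = 5.33e-07). Myh9, which encodes a non-muscle myosin, rose by 0.16 in 4T1 tumors (adjusted p = 0.0166), a call lost without 4T1 tumor replicate 2 (adjusted p = 0.0983) and with the muscle covariate (adjusted p = 0.547). Markers of smooth muscle and myoepithelial cells outside the set, such as Acta2, Krt5 and Krt14, moved with these genes: 8 of 9 were lower in 4T1 tumors at 6 w p.i., with mean scores of -0.01, -0.32 and 0.21 against 1.03, 1.28 and 1.22 in the glands. Their part in the result was not tested.

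Of the 20 matrix, adipose and secreted genes, 12 were lower and 3 higher in 4T1 tumors than in BALB/c glands at 6 w p.i., where 21.5% of all genes were lower and 38.6% higher. In Py230 tumors 10 were lower and 1 higher than in C57BL/6 glands, where 18.7% of all genes were lower and 28.8% higher. Cfd, which encodes the adipokine adipsin, had scores of -0.03, -0.02 and 0.57 in 4T1 tumors, 0.44, 0.77 and 1.91 in Py230 tumors, 2.81, 2.53 and 2.82 in BALB/c glands and 2.61, 3.01 and 2.85 in C57BL/6 glands at 6 w p.i. It differed by -2.55 (SE 0.36, adjusted p = 1.79e-06) in 4T1 and by -1.78 (SE 0.36, adjusted p = 0.000276) in Py230 tumors. Cd36, which encodes a fatty acid transporter of fat, vessels and muscle, differed by -1.77 (SE 0.24, adjusted p = 6.1e-07) and -1.49 (SE 0.24, adjusted p = 1.55e-05). The tumors were below the glands in each case, with Py230 replicate 3 nearest to them for Cfd.

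Adipocyte genes outside the set moved with these. Their mean scores at 6 w p.i. were -0.11, -0.16 and 0.11 in 4T1 tumors and 0.07, 0.23 and 1.05 in Py230 tumors, against 1.69 to 2.23 over all 18 Matrigel glands, and 10 of 10 were called lower in each model. Their part in the result was not tested. Gsn, which encodes the actin-severing protein gelsolin, differed by -1.24 (SE 0.21, adjusted p = 1.44e-05) in 4T1 and -1.35 (SE 0.21, adjusted p = 1.03e-05) in Py230 tumors, Gpx3, a secreted glutathione peroxidase, by -1.24 (SE 0.22, adjusted p = 3.98e-05) and -1.14 (SE 0.22, adjusted p = 0.000177), and Apod, a lipid carrier, by -1.97 (SE 0.18, adjusted p = 1.97e-09) and -0.94 (SE 0.18, adjusted p = 0.00017).

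Of the matrix, adipose and secreted genes, Hbegf was higher in both models at 6 w p.i. Hbegf, which encodes a ligand of the EGF receptor, had scores of 1.18, 1.11 and 1.09 in 4T1 tumors at 6 w p.i. and -0.50, -0.42 and -0.31 in BALB/c glands, a difference of 1.54 (SE 0.12, adjusted p = 6.21e-11), and it rose by 0.85 (SE 0.12, adjusted p = 2.68e-06) in Py230 tumors against their glands. Bdkrb2, which encodes the bradykinin B2 receptor and is in no role list, had scores of 0.44, 0.35 and 0.27 in 4T1 tumors at 6 w p.i. and -0.98, -0.85 and -0.81 in BALB/c glands, a difference of 1.23 (SE 0.07, adjusted p = 8.04e-13). The 4T1 tumors at 6 w p.i. held the only 3 Bdkrb2 scores above 0. Stc2, which encodes the secreted glycoprotein stanniocalcin-2, went down in 4T1 tumors, with a difference of -1.57 (adjusted p = 1.84e-09) and had scores of 1.14, 1.10 and 1.18 in Py230 tumors at 6 w p.i.

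Of the 11 myogenic regulators, 4 were lower and 1 higher in 4T1 tumors at 6 w p.i. against their glands, and the counts were the same for Py230 tumors. These 5 of 11 genes stand beside 60.1% of all genes called in 4T1 and 47.6% in Py230 tumors. Myog, which encodes myogenin, had scores of -1.53, -0.59 and -1.63 in BALB/c glands at 1 w p.i. and -0.97, -1.49 and -0.92 in 4T1 tumors at 6 w p.i., with an authors' mean of 17.3 normalized counts, and was called in 0 comparisons. Wwtr1, which encodes the Hippo coactivator TAZ, had scores of 1.74, 1.81 and 1.62 in 4T1 tumors at 6 w p.i. and 1.40, 1.39 and 1.44 in BALB/c glands, a difference of 0.32 (SE 0.06, adjusted p = 0.000169). Notch1 was lower there, with a difference of -0.32 (adjusted p = 0.000117). Ncam1, which encodes a neural cell adhesion molecule, rose in Py230 tumors at 6 w p.i. by 0.77 (adjusted p = 3e-05), from scores of -0.03, -0.33 and -0.07 in C57BL/6 glands to 0.67, 0.76 and 0.46.

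In Py230 tumors at 6 w p.i., 69 of the 179 genes were called against C57BL/6 glands, 48 lower and 21 higher, where 47.6% of all genes were called (18.7% lower and 28.8% higher). The median difference was -0.23 over the set and 0.03 over all genes. Fast-fiber genes had mean scores below those of the glands in each of the 3 tumors, but 0 of 8 were called, at an unadjusted p under 0.05 as well, and 1 of the 19 striated muscle genes outside the set was called. Called were 7 of 14 sarcolemma genes, 11 of 20 matrix, adipose and secreted genes, 5 of 12 smooth muscle genes and 36 of 67 genes of no role list, shares near that of all genes. Spdef, which encodes an ETS factor of secretory epithelium, had scores of 0.10, -0.04 and 0.26 in these tumors and -0.44, -0.54 and -0.54 in the glands, a difference of 0.61 (SE 0.12, adjusted p = 0.000172). Fitted on these 6 libraries alone the count was 109, where 54.6% of all genes were called.

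The direct comparison of 4T1 with Py230 primary tumors addressed how the models differ at each time point. At 6 w p.i., 65 of the 179 genes were called, 35 higher and 30 lower in 4T1, where 40.8% of all genes were called (24.1% higher and 16.7% lower), and leaving out single libraries gave 54 to 61. None of the 8 fast-fiber genes was called at an adjusted p of 0.05, nor at an unadjusted one. Chrnb1 and Tnnt2 (each above) and Hbegf (0.78, adjusted p = 5.26e-06) were higher in 4T1. Bdkrb2 was higher too, and it was also called higher in BALB/c than in C57BL/6 Matrigel glands of that week. Stc2 (-1.43, adjusted p = 9.94e-09), Ppp1r3c (-1.44, adjusted p = 6.54e-05), Spdef (-1.41, adjusted p = 3.53e-10) and Ldb3 (-1.11, adjusted p = 0.00832) were lower in 4T1. The 6 w p.i. 4T1 libraries also enter the comparison with BALB/c glands, so these are not separate evidence.

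At 3 w p.i., 36 genes were called between the tumors, 20 higher and 16 lower in 4T1, where 30.3% of all genes were called (11.9% higher and 18.5% lower). Without Py230 tumor replicate 1, the library with the lowest fast-fiber score, the count was 22 (17.1% of all genes). It was 3 in a fit on these 6 libraries alone (2% of all genes) and 8 with the difference between the Matrigel glands of the strains subtracted (9.15% of all genes). Spdef was lower in 4T1, with a difference of -1.24 (adjusted p = 2.3e-08), with scores of -1.22, -0.80 and -0.95 against 0.53, 0.33 and -0.10 in Py230, and Tpd52l1, a member of the tumor protein D52 family, likewise, with a difference of -0.76 (adjusted p = 2.92e-06). In both genes the models did not overlap. Ptgis, which encodes prostacyclin synthase, was higher by 0.59 (adjusted p = 0.00145).

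At 1 w p.i., 23 genes were called between the tumors, 5 higher and 18 lower in 4T1, where 19.4% of all genes were called (11% higher and 8.43% lower). The count fell to 8 without 4T1 tumor replicate 1, 9 without 4T1 tumor replicate 3, 9 without Py230 tumor replicate 1, 12 without Py230 tumor replicate 2 and 13 without Py230 tumor replicate 3. The share of all genes called fell too, to 8.46%, 7.55%, 9.78%, 15.1% and 13.6% in the same order. The count was 1 with the difference between the Matrigel glands of the strains subtracted (0.305% of all genes) and 14 in a fit on these 6 libraries alone (6.87% of all genes). Ocel1 was higher in 4T1 by 0.26 (adjusted p = 1.01e-05), and the strains differed in the same direction without tumor cells, by 0.16 (adjusted p = 0.00514) in Matrigel glands of the same week.

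Against their own glands, the early tumors showed few or unstable calls, in these genes and in all genes alike. In 4T1 tumors at 1 w p.i. 23 were called, 7 higher and 16 lower (16.6% of all genes, 9.91% higher and 6.72% lower), which became 2 without 4T1 tumor replicate 1, 0 without 4T1 tumor replicate 3, 0 without BALB/c gland replicate 2 and 40 without 4T1 tumor replicate 2. The share of all genes called in these fits was 2.19%, 0.148%, 0.614% and 24.5%, in the same order. In 4T1 tumors at 3 w p.i. 5 were called, 1 higher and 4 lower (3.25% of all genes, 2.1% higher and 1.15% lower), which became 0 without 4T1 tumor replicate 1 or without any 1 of the 3 BALB/c glands and 11 without 4T1 tumor replicate 3. Of all genes, 0.0139% to 0.346% were called in the fits that gave 0, and 9.95% without 4T1 tumor replicate 3. In Py230 tumors at 1 w p.i. 0 were called with limma (0.00924% of all genes) and 7 had an unadjusted p under 0.05. In Py230 tumors at 3 w p.i. 26 were called, 5 higher and 21 lower (19.7% of all genes, 12.8% higher and 6.9% lower), which became 2 without Py230 tumor replicate 1, 14 without C57BL/6 gland replicate 2 or without replicate 3, and 67 without Py230 tumor replicate 3. The share of all genes called in these fits was 4.36%, 12.1%, 11.4% and 32.2%, in the same order. Fitted with limma on the 6 libraries of each comparison alone, 0 genes were called in 4T1 tumors at 1 w p.i., 0 at 3 w p.i. and 0 in Py230 tumors at 3 w p.i., with 45, 21 and 38 at an unadjusted p under 0.05. Of all genes, 0%, 0% and 0.166% were called there. Leukocyte genes moved in the early 4T1 tumors, with mean scores of 1.14, 0.88 and 1.09 at 1 w p.i. against 0.57, 0.25 and 0.70 in BALB/c glands, and 6 of 7 called higher. Lsp1, a leukocyte-specific protein gene of the set, was higher there by 0.38 (adjusted p = 0.0096).

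Matrigel glands of the 2 strains differed in few of the genes. Between BALB/c and C57BL/6 glands 2 genes were called at 1 w p.i. (3.06% of all genes, 1.57% higher and 1.49% lower in BALB/c), 2 at 3 w p.i. (3.77%, 1.89% higher and 1.88% lower) and 3 at 6 w p.i. (3.84%, 1.67% higher and 2.18% lower). Ocel1 and Bdkrb2 were called higher in BALB/c at each week, with Bdkrb2 differing by 0.36, 0.31 and 0.33, and Tead4, which encodes a partner of TAZ, was called at 6 w p.i. (0.40, adjusted p = 0.0136). The count was 1 at 3 w p.i. without BALB/c gland replicate 3, C57BL/6 gland replicate 2 or C57BL/6 gland replicate 3 (3.8%, 2.51% and 2.62% of all genes), and 1 at 6 w p.i. without BALB/c gland replicate 3 (3.03%). Fitted with limma on the 6 glands of a week alone, it was 0 at 1 w p.i. (1.01% of all genes), with 11 at an unadjusted p under 0.05. In such a fit at 6 w p.i. it was 18, 17 higher and 1 lower in BALB/c, where 3.34% of all genes were called. Fast-fiber genes were called in 0 of these comparisons, with glands of the same strain up to 3.01 units apart.

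**Figure D5:**
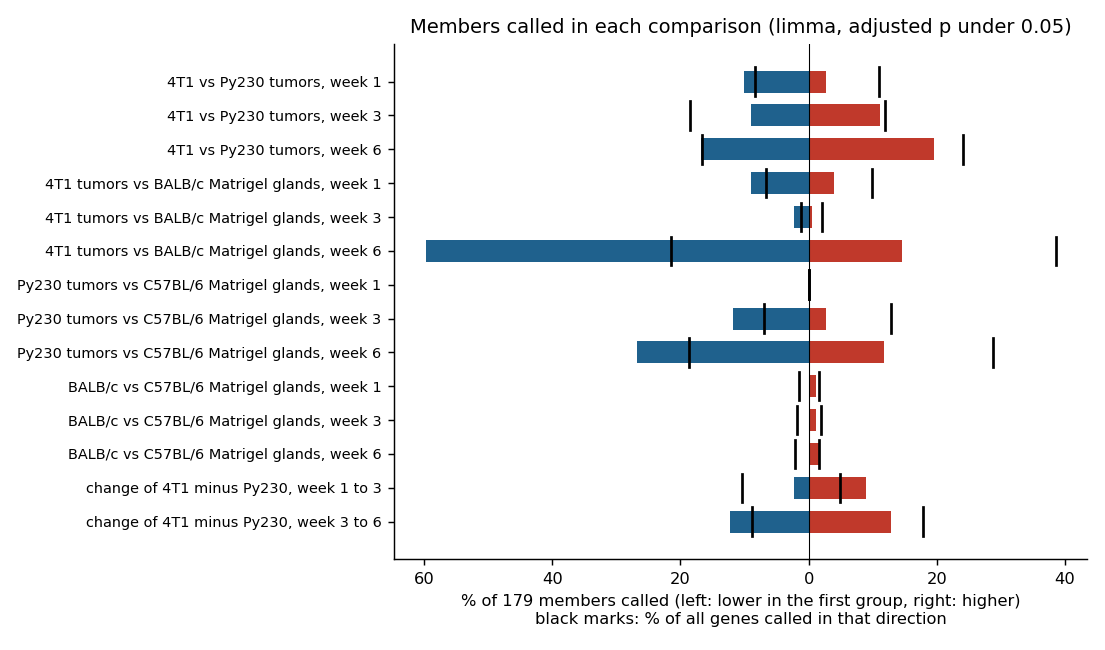
Share of the 179 genes called with limma in each of 14 comparisons (horizontal axis, percent; bars to the right are higher and bars to the left lower in the group named first), with black marks for the share of all 21650 genes called in that direction. In 4T1 tumors at 6 w p.i. against BALB/c glands the bar of lower genes runs past its mark at 21.5%, and that of higher genes stops short of its mark at 38.6%.

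The difference between the models changed with time in 20 genes from 1 to 3 w p.i. (16 upward and 4 downward in 4T1 relative to Py230, 15.3% of all genes called, 4.89% upward and 10.4% downward) and in 45 genes from 3 to 6 w p.i. (23 upward and 22 downward, 26.7% of all genes, 17.8% upward and 8.88% downward). From 1 to 3 w p.i., 8 of the 20 matrix, adipose and secreted genes shifted upward, among them Gpx3 by 1.17 (adjusted p = 0.0151) and Gsn by 1.06 (adjusted p = 0.0163), while 6 of 6 fibroblast genes outside the set shifted upward as well; their part in the result was not tested. The count from 1 to 3 w p.i. turned on single libraries, as did the share of all genes called. In a limma fit on the tumor groups alone it was 0 (0.0185% of all genes), with 26 at an unadjusted p under 0.05. Among the tumors taken at 1 w p.i., it was 10 without the first 4T1 replicate (9.1% of all genes), 13 without the third (10.5%) and 11 without the third of Py230 (10.6%). Among those taken at 3 w p.i., it was 40 without the first 4T1 replicate (25.2%), 9 without the second (8.66%), 8 without the first of Py230 (4.95%) and 44 without replicate 3 of Py230 (27%). From 3 to 6 w p.i. single libraries moved the count between 38 and 61 (21.8% to 32.3% of all genes). Fast-fiber genes were called in neither change.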

How the data were processed

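The libraries were stranded, read as pairs and, per the labels and the study's methods, mapped with STAR to mm10, counted per gene and normalized with DESeq2 by the authors, with no versions given in the sources used here. The deposited expression values are score values that the authors had standardized within each library (mean 0, SD 1), not counts, so a count test could not be used. The limma test fixed in the design for such values was run. The depth reached cannot be read from them and no counting interval was computed. The authors' mean normalized count, pooled over all libraries, was taken from their deposited comparison tables. The fold changes and p-values of those tables were not used.

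Samples were grouped by their titles, and 0 columns were left unmapped. Scores were fitted in R 4.3.3 with limma 3.58.1 (1 mean per group over 36 libraries, empirical Bayes with trend and robust moderation, Benjamini-Hochberg over 21650 genes, threshold 0.05, 14 comparisons). With 3 libraries a group, an exact permutation test cannot give p below 0.1 and was not used. The code was tested on simulated data. The 5384 genes without a symbol were named from GENCODE M21 on mm10. The highest correlation between 2 libraries was 0.993, so none was counted as a copy.

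The genes, the role lists and the lists of other cells were chosen with earlier results of these data known. Genes were named by a rule: in each role list the 3 with the highest mean score and the 3 with the smallest adjusted p in any of the 12 comparisons of 2 groups, in each comparison of 2 groups the 2 largest called differences in each direction, and 10 muscle genes in any case (Acta1, Ckm, Mylpf, Tnnt3, Myh4, Atp2a1, Myog, Myh11, Tagln, Mylk). Tnnc2, Tnni2, Actc1, Actn3, Casq1, Chrna1, Ache, Myh2, Myh3, Myh8 and Myl4 were named outside the rule, after their values were seen. Alternatives were cyclic loess, a minimum authors' mean of 10, only the groups compared, a replicate block, leaving out each library, subtracting the Matrigel difference, and the muscle covariate. Promoters and figures used Python 3.11.15, pandas 2.3.3 and matplotlib 3.10.9.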

Additional observations from a re-analysis of the deposited data

Results flagged for a closer look

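The change of the difference between 4T1 and Py230 tumors over time was tested in limma as an interaction, and the genes named by the rule that passed are given here in score units (4T1 minus Py230, later minus earlier). From 1 to 3 w p.i. 20 of the 179 genes passed, where 15.3% of all genes were called. Upward in 4T1 were Gpx3 by 1.17, Gsn by 1.06, Lama2 by 0.644 and Ptgis by 0.579. The calcium channel gene Cacna1h shifted by 0.446, the bradykinin receptor gene Bdkrb2 by 0.332 and the transcription factor gene Mef2a by 0.187. The epithelial genes Spdef and Tpd52l1 shifted by -1 and -0.859. The change within each model from 1 to 3 w p.i. was not tested. With the muscle covariate Lama2, Ptgis and Bdkrb2 were no longer called (adjusted p from 0.0579 to 0.086). In a limma fit on the tumor groups alone, 0 of the 179 genes and 0.0185% of all genes passed. Of the 179 genes, 26 had an unadjusted p under 0.05 there.

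From 3 to 6 w p.i. 45 of the 179 genes passed, where 26.7% of all genes were called. In a limma fit on the tumor groups alone the count was 30 (15.5% of all genes). Leaving out single libraries gave 38 to 61. Upward in 4T1 were Tnnt2 by 1.37, Chrnb1 by 1.04, Hbegf by 0.866, Bdkrb2 by 0.653, Tpd52l1 by 0.481, Wwtr1 by 0.48, Tead4 by 0.389, Mras by 0.26 and Hdac5 by 0.166. Downward were Ppp1r3c by -1.53, Stc2 by -1.49, Apod by -0.788, Casq2 by -0.678, Dmd by -0.507, Notch1 by -0.421 and Myh7 by -0.265. Tpd52l1 and Bdkrb2 were called in both intervals, Tpd52l1 with opposite signs and Bdkrb2 with the same sign. No group holds more than 3 libraries, so single libraries were not tested as outliers.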

How the results depend on the processing

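Cyclic loess between libraries and a minimum authors' mean of 10 left all 14 counts of called genes within 1.5 times, and 8 of 184 and 0 of 176 calls of named genes were lost. With the replicate number as a block the count between strains at 6 w p.i. was 5 in place of 3, and all 184 calls of named genes and the other 13 counts held; the numbers were not taken as pairs, since 10 of 36 pairs of same-numbered libraries correlated above 0.1 (range -0.466 to 0.789) and 18 of 72 comparisons of a library put its own number first. Fitted on the groups compared only, which lost 63 of 184 calls of named genes, the counts between tumors were 14 (1 w p.i.) and 3 (3 w p.i.), 0 for 4T1 against glands at 1 and 3 w p.i., 0 and 109 for Py230 against glands at 3 and 6 w p.i., 0 and 18 between strains at 1 and 6 w p.i., and 0 for the change from 1 to 3 w p.i. The shares of all genes called were 6.87% and 2%, 0% and 0%, 0.166% and 54.6%, 1.01% and 3.34%, and 0.0185%, in that order. With the Matrigel difference subtracted, the counts between tumors were 1 and 8 at 1 and 3 w p.i. (0.305% and 9.15% of all genes). The muscle covariate, chosen after the data were seen, gave 8 and 86 for 4T1 against glands at weeks 3 and 6 and 4 and 7 between strains at the same weeks, and the estimates for Myh1 (0.24) and Tnnt3 (0.29) in 4T1 at 6 w p.i. changed sign. The median over the fast-fiber genes was 2.07 in BALB/c and 1.58 in C57BL/6 glands at 6 w p.i., where the means were 1.77 and 1.32. The cause of these shifts was not tested.

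Leaving out single libraries gave 8 to 33, 22 to 47 and 54 to 61 calls between tumors at the 3 time points in turn, 0 to 40, 0 to 11 and 116 to 131 for 4T1 against glands, 0 to 0, 2 to 67 and 58 to 65 for Py230 against glands, 2 to 3, 1 to 2 and 1 to 2 between strains, 8 to 44 for the change from 1 to 3 w p.i. and 38 to 61 for that from 3 to 6 w p.i. The share of all genes called moved as well. For 4T1 against glands at 1 w p.i. it ran from 0.148% to 24.5%. For Py230 against glands at 3 w p.i. it ran from 4.36% to 32.2%, and for the change from 1 to 3 w p.i. from 4.95% to 27%. Of 1254 calls of named genes without 1 library, 1017 held and 237 were lost, and 0 changed sign. The number of 3 libraries a group limits the precision of every value.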
